A study of Mus musculus with 18 samples.

Results

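The genes described here encode the metalloproteases that cut the extracellular matrix and the ectodomains of membrane proteins, together with the inhibitors of these enzymes. They were taken by name: every gene called Mmp, Adam, Adamts or Timp followed by a number (with a letter where there is one) on the arrays is a member, which gave 71 of the 27597 genes on the array and 122 probes. The rule uses names only. Of the 71 members, 34 had 1 probe and 37 had more, and a gene with several probes is represented by its brightest usable one. For a probe to be usable, some group had to have its spot marked well above background on each of the 3 arrays, and 58 members passed this filter. The other 13 were Adam6a, Adam7, Adam18, Adam22, Adam24, Adam25, Adam29, Adam32, Adamts13, Adamts20, Mmp10, Mmp20 and Mmp21, which were above background on at most 4 arrays, and 4 of them on none. Since a member can pass through the one group in which it is high, 29 members that were above background on all 18 arrays are counted separately below.

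By the labels, RNA came from young adult male mice of the strain C57BL/6, with no treatment or engineered allele named. Interscapular brown fat, inguinal fat and epididymal fat were each digested with collagenase, and the floating adipocytes were separated by centrifugation from the pelleted stromal-vascular fraction (SVF), in which red cells were lysed. The SVF holds the fibroblast-like progenitors, blood vessel cells and immune cells of the tissue. There were therefore 6 groups (brown, inguinal and epididymal, SVF and adipocytes), each labelled as biological triplicates and each RNA hybridised to a one-colour Agilent array. The labels do not say whether fat of several mice was pooled, so p-values measure the spread between these 18 samples, and the number of arrays limits the precision.

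Matrix metalloproteases (MMPs) are made as inactive proenzymes and are held in check by tissue inhibitors of metalloproteases (TIMPs). ADAMTS enzymes are secreted proteases that process procollagen or cut proteoglycans such as versican and aggrecan. ADAMs sit in the membrane, where some release growth factors and cytokines from their precursors, while others serve sperm maturation and fertilisation. In fat the matrix around each adipocyte has to be opened and rebuilt when the cell enlarges, and progenitors, fibroblasts and macrophages are known sources of these enzymes.

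A level is the log2 of the background-corrected signal minus the log2 of the 75th percentile of the same array, so a level of 0 is the 75th percentile. Levels of different genes come from different probes and are not set against each other. Differences were tested with limma on all 19217 genes that passed the filter, with p-values adjusted by the Benjamini-Hochberg method over all of them in each comparison, and a gene is called higher or lower at an adjusted p under 0.05. Every adjusted p below comes from this fit, and each difference is followed by its standard error (SE), with n = 3 arrays in each group. Where no array of the lower group was well above background, the fold is a lower bound, written as at least N-fold. It sets the mean of the higher group against the mean of, for each array of the lower group, the weakest signal still well above background or the spot's own signal if that was higher. Where only some arrays of the lower group were above background, the difference includes spots that were not. For a member called, the number of arrays above background is then given.

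The 75th percentile signal ran from 338 to 1257 over the arrays, no spot was saturated, and 49.6% to 72.3% of spots were well above background except on the library labelled epididymal adipocyte 1, where 87.9% were. A pair of libraries stood apart. The library labelled inguinal SVF 1 had a summed signal of 8 mesothelial markers of 156 times the 75th percentile, against 1.63 and 2.95 on the other inguinal SVF arrays, and alone expressed Xist (4.99) while lacking Ddx3y (-6.49). Xist without Ddx3y goes against the male label of this library, which was kept in the main fit. The library labelled epididymal adipocyte 3 had the brown fat gene Ucp1 at 4.50, against -3.35 and -1.05 in its group. Other arrays also differed within their groups. Inguinal SVF 3 had a summed signal of 9 lymphocyte markers of 78.5, against 2.50 and 13.7 on inguinal SVF 1 and 2. Inguinal adipocytes 1 and 2 had 21.6 and 17.0, against 1.31 on array 3. A sum of 7 skeletal muscle markers was 63.3 on inguinal SVF 2, against 2.75 and 2.21 on the others of that group. Mature adipocyte markers, 10 in number, summed to between 1218 and 3060 on the 9 adipocyte arrays and to between 34.4 and 1043 on the SVF arrays, with the highest SVF value in brown SVF 2. The 6 inguinal and epididymal adipocyte arrays were scanned on 5 other days and extracted with another software version than the other 12, so every comparison of these 6 with other arrays cannot be told apart from scan and software. Brown adipocytes and brown SVF shared slides, and the SVF groups and brown adipocytes shared 2 scan days.

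Promoters are shown for 5 members on which the results turn. Mmp3 and Mmp13 had a fraction difference that depended on the depot. Adam19, Adamts2 and Timp2 were called lower in adipocytes of all 3 depots, with inguinal and epididymal calls that depended on single arrays. Each run is the 250 bases 5′ of the transcription start, 5′ to 3′ on the gene's strand, from RefSeq on GRCm38.p6, where 42 of the 71 members have an entry. Capitals mark matches on either strand to the AP-1 motif TGANTCA or to the GC box GGGCGG, which do not overlap each other. The Mmp3 promoter lies on the plus strand at chr9:7445572-7445821, that of Mmp13 on the plus strand at chr9:7272264-7272513, that of Adam19 (entry 2 of its 3) on the plus strand at chr11:46055734-46055983, that of Adamts2 on the plus strand at chr11:50601835-50602084 and that of Timp2 on the minus strand at chr11:118355412-118355661.
Mmp3: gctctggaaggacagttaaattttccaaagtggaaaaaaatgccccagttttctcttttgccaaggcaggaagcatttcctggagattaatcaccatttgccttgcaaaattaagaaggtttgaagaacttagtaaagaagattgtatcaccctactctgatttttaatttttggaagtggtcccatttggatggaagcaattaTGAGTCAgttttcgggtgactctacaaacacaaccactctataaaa
Mmp13: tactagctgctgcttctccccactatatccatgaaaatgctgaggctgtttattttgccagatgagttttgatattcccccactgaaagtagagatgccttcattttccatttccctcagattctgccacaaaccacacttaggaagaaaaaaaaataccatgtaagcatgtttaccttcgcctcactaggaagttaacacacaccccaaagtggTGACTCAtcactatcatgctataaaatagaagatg
Adam19: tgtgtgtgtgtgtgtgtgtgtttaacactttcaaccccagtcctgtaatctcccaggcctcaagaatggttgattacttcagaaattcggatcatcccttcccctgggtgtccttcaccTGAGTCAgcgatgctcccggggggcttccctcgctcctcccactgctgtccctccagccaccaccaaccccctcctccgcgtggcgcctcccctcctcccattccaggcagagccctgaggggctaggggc
Adamts2: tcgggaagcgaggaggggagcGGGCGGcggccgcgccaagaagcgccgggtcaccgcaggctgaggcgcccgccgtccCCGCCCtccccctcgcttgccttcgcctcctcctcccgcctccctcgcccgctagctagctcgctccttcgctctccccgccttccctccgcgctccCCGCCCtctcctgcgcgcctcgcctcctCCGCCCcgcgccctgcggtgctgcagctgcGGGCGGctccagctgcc
Timp2: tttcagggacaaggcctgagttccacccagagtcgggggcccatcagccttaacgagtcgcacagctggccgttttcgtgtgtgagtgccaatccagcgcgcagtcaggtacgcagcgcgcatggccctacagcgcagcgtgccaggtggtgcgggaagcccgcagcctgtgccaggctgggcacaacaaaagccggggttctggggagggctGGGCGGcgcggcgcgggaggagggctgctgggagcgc

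The AP-1 motif stood 46 bases before the start in Mmp3 and 35 bases before it in Mmp13, and both promoters also held TATAAA. In the Adam19 entry shown an AP-1 match lay 131 bases upstream, while its entries 1 and 3 held neither motif. The Adamts2 window held 5 GC boxes and no AP-1 match, and the Timp2 window 1 GC box. Both entries of Mmp23, another member lower in all depots, held neither motif. Over all 32851 promoters in the table the AP-1 motif occurred in 6.75% and the GC box in 32.7%, against 10 (21.3%) and 20 (42.6%) of the 47 promoters of members. The 10 members with an AP-1 match were Adam19, Adam25, Adam29, Mmp1a, Mmp3, Mmp7, Mmp10, Mmp12, Mmp13 and Mmp20. A match describes the letters only and shows no binding. The 7 MMPs in that list lie in 1 cluster on chromosome 9, in the order Mmp13, Mmp12, Mmp3, Mmp1a, Mmp10, Mmp20 and Mmp7, with Mmp8 between Mmp10 and Mmp20.

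The first question is how these genes divide between adipocytes and SVF in each depot. In brown fat 20 of the 58 tested members were lower in adipocytes and none was higher, against 21.1% of all genes called in either direction (12.7% higher, 8.35% lower). In inguinal fat 12 were lower and 2 higher (background 13.9%, with 9.07% higher and 4.87% lower), and in epididymal fat 11 were lower and 9 higher (background 25%, with 18% higher and 7.05% lower). The median difference of the 58 was -0.79 for brown fat, -0.27 for inguinal fat and -0.46 for epididymal fat, where all genes had medians of 0.15, 0.01 and 0.06. In a fit restricted to probes above background on all arrays, which kept 29 members, 11 were called in brown fat, 7 in the inguinal depot and 8 in the epididymal depot (background 25.5%, 18.6% and 19.7% of all genes in that fit), all lower in adipocytes except 1 in epididymal fat. Adam19, Adamts2, Adamts15, Adamts16, Mmp23 and Timp2 were lower in all 3 depots, as were 1.21% of all genes, and no member was higher in all 3 (3.71% of all genes). A further 7 were lower in a pair of depots (2.88% of all genes) and 11 in 1 (10.9%), Adam2 alone was higher in a pair (4.77%), and 9 were higher in 1 (19.1%). For 24 of the 58 members no depot passed the test, nor for 11111 of the 19217 genes. Without the pair of libraries that stood apart, Adam19, Adamts2, Adamts15 and Timp2 lost the inguinal call (adjusted p = 0.0562, 0.115, 0.124 and 0.167). Adam19 then lost the epididymal call as well (adjusted p = 0.0936). Quantile normalization in place of the 75th percentile moved the median of all genes to -0.03 in brown and -0.12 in epididymal fat, and the share of higher genes among all calls from 60.4% to 49.3% and from 71.8% to 52.9%. The members were then split 0 higher and 22 lower in brown fat, 3 and 11 in the inguinal depot and 8 and 17 in the epididymal depot.

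**Figure D1:**
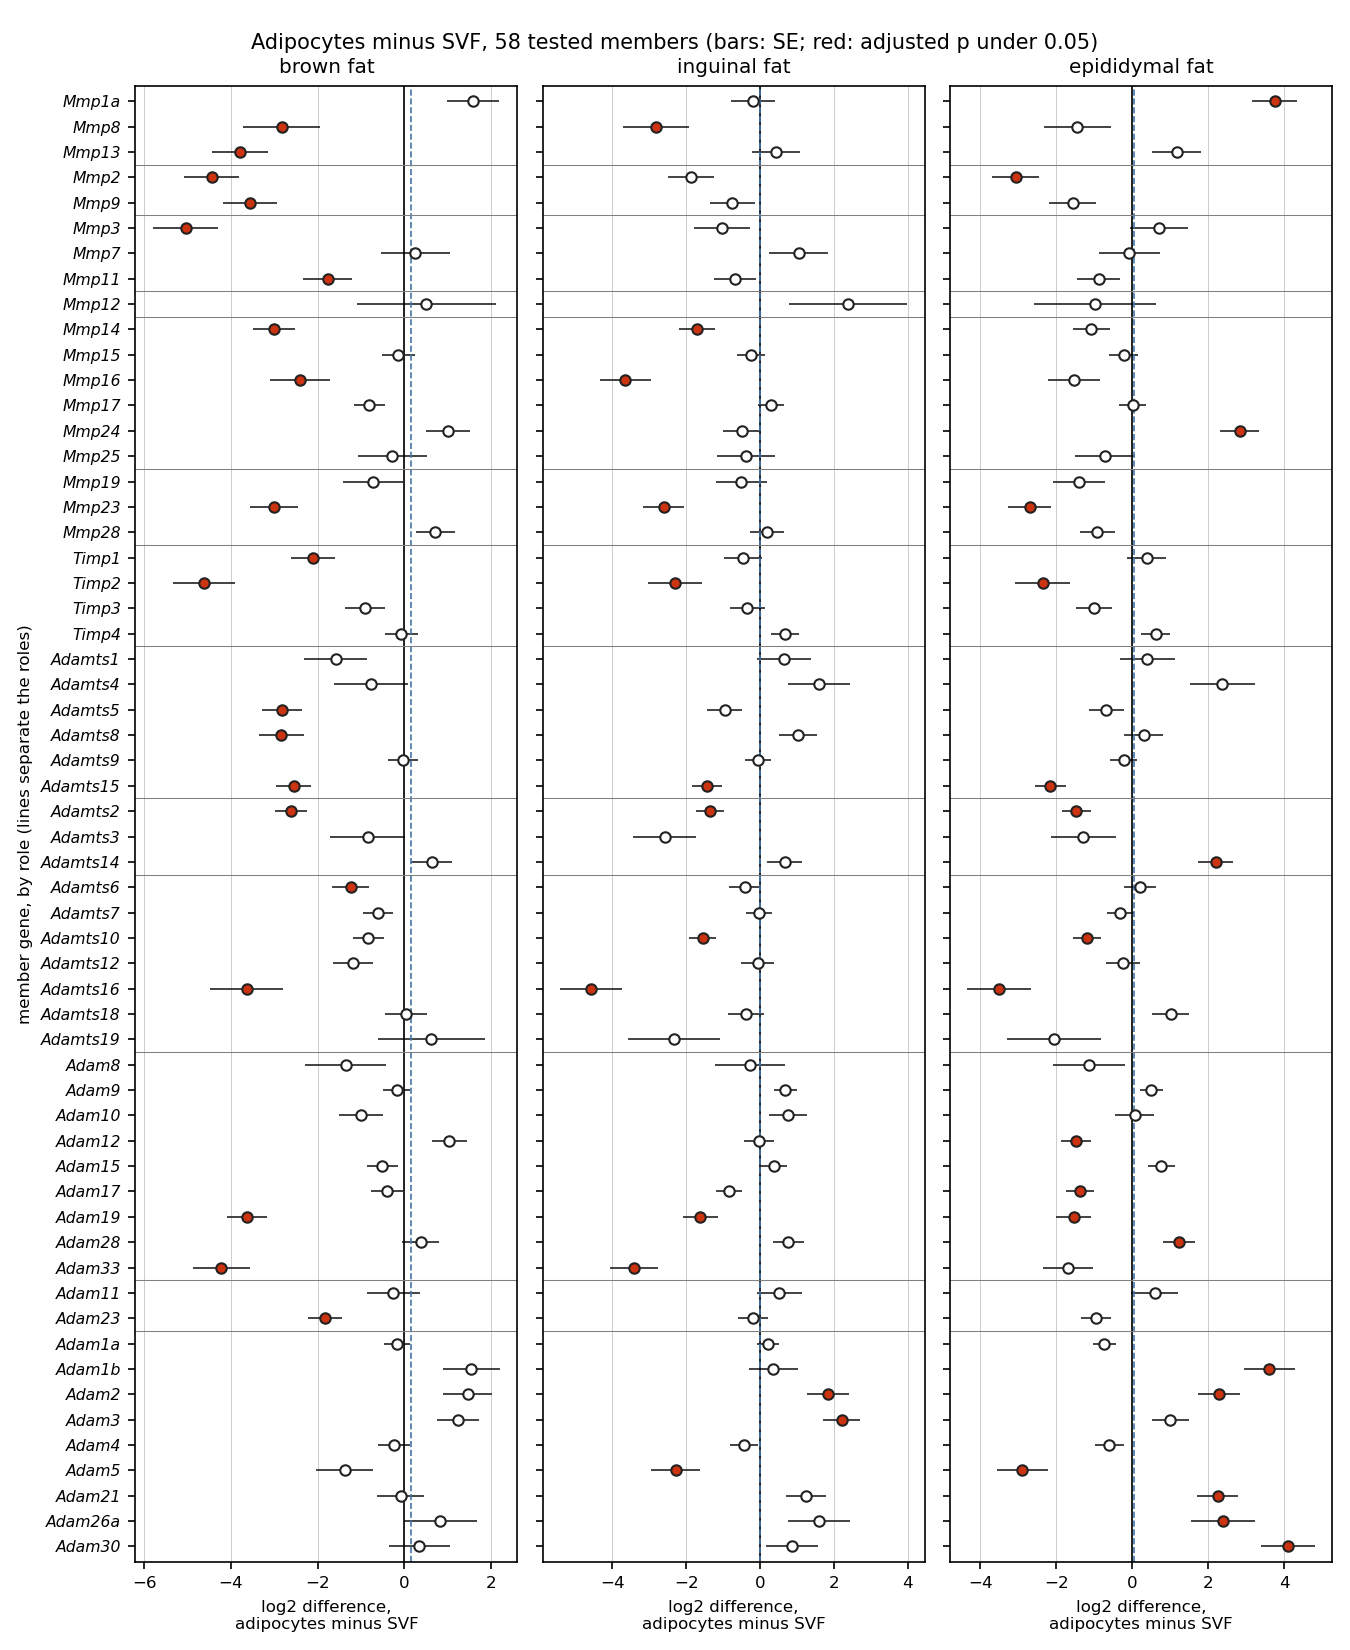
Log2 difference between adipocytes and SVF (horizontal axis) for each of the 58 tested members (vertical axis, grouped by role) in the 3 depots, with bars of 1 SE from limma and red points at an adjusted p under 0.05. The dashed line is the median of all genes; the 20 red points of brown fat all lie left of 0, and 9 of the 20 in epididymal fat lie right of it.

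The summed signal of 10 progenitor and fibroblast markers was set beside these differences. It was 608 to 642 in brown SVF and 67.6 to 98.2 in brown adipocytes, 457 to 1006 and 132 to 539 in inguinal fat, and 613 to 824 and 233 to 358 in epididymal fat, with all 10 markers above background on at least 1 array of every group. Of the 10, 9, 8 and 6 were lower in adipocytes of brown, inguinal and epididymal fat. The 10 macrophage markers summed to 113 to 160 in brown SVF and 8.13 to 50.4 in brown adipocytes, and 9 of them were lower, whereas none was called in inguinal fat and 1 was lower in epididymal fat. In inguinal adipocytes the macrophage sum was 286 and 200 on arrays 1 and 2 and 40.8 on array 3. Of 8 mural cell markers, 5 were lower and none higher in brown adipocytes. In inguinal and epididymal adipocytes 3 and 2 of them were higher and none lower. These arrays measure RNA of whole fractions, so fewer cells of a type and less RNA per cell cannot be told apart, and the part of these markers in the members' differences was not tested. In brown fat all 20 lower members were also below 0 within each slide, from -5.07 to -1.24 on slide 6 and from -5.00 to -1.23 on slide 8. Slide 8 held 1 brown array of each fraction. The 20 were called from these same arrays, so their shared sign within slides is no separate support. With each of the 18 arrays left out in turn, 16 of the 20 brown calls, 5 of the 14 inguinal calls and 10 of the 20 epididymal calls were kept.

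The 4 inhibitors did not move together. Timp2, which blocks MMPs and also takes part in activating the Mmp2 proenzyme at the cell surface, was lower in adipocytes of every depot. Its levels in brown fat were 6.26, 6.42 and 6.04 in SVF and 2.20, 1.55 and 1.12 in adipocytes. All brown SVF arrays lay far above all brown adipocyte arrays, a 24.6-fold difference (log2 -4.62, SE 0.72, adjusted p = 0.000533). In inguinal fat Timp2 read 8.07, 7.59 and 4.96 in SVF and 6.11, 4.46 and 3.15 in adipocytes, so that the groups overlapped. The inguinal difference of -2.30 (SE 0.72, adjusted p = 0.0462) lost its call in 16 of the 18 fits with an array left out, and was -1.59 (adjusted p = 0.219) without inguinal adipocyte 3. In epididymal fat the levels were 6.98, 6.57 and 6.996 in SVF and 4.02, 4.59 and 4.87 in adipocytes, without overlap (-2.36, SE 0.72, adjusted p = 0.0276). That call was lost in 5 of the 18 fits, and the difference was -2.12 (adjusted p = 0.104) without epididymal adipocyte 1.

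Timp1, a secreted inhibitor known to be induced in inflammation, separated the fractions in brown fat. It stood at 0.01, 0.49 and 1.22 in brown SVF and at -1.92, -1.09 and -1.64 in brown adipocytes. These groups did not overlap, and the level was 4.34-fold lower in adipocytes (-2.12, SE 0.51, adjusted p = 0.00784). In the white depots Timp1 read 1.27, 1.15 and 0.52 in inguinal SVF, 1.15, 0.90 and -0.51 in inguinal adipocytes, 0.85, 0.55 and 2.41 in epididymal SVF and 1.85, 1.28 and 1.82 in epididymal adipocytes. Fractions overlapped in both depots, with differences of -0.47 (adjusted p = 0.571) and 0.38 (adjusted p = 0.624). The second Timp1 probe gave -2.19, -0.74 and -0.15 in brown, inguinal and epididymal fat.

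Timp3 and Timp4 passed the test in no depot. Timp3 binds to the matrix and inhibits Adam17 as well as MMPs. Its brown levels were 6.89, 6.69 and 6.13 in SVF and 5.75, 5.87 and 5.36 in adipocytes, a difference of -0.91 (SE 0.47, adjusted p = 0.202) with no overlap. Timp3 read 5.14, 6.23 and 4.01 in inguinal SVF and 5.14, 4.78 and 4.45 in inguinal adipocytes, and 6.13, 6.26 and 4.92 in epididymal SVF and 4.43, 5.02 and 4.84 in epididymal adipocytes. Both pairs of groups overlapped (-0.34, adjusted p = 0.661, and -1.01, adjusted p = 0.132). Timp4, an inhibitor known to be expressed in fat, was at 5.32, 4.24 and 4.01 in brown SVF and 4.45, 4.67 and 4.24 in brown adipocytes. Its inguinal levels were 3.29, 3.68 and 2.53 in SVF and 4.00, 3.78 and 3.74 in adipocytes, and its epididymal levels 4.53, 4.69 and 3.43 in SVF and 4.83, 4.92 and 4.76 in adipocytes. Every white adipocyte array read higher than every SVF array of its depot, yet the differences of 0.67 and 0.62 missed the threshold (adjusted p = 0.257 and 0.255).

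**Figure D2:**
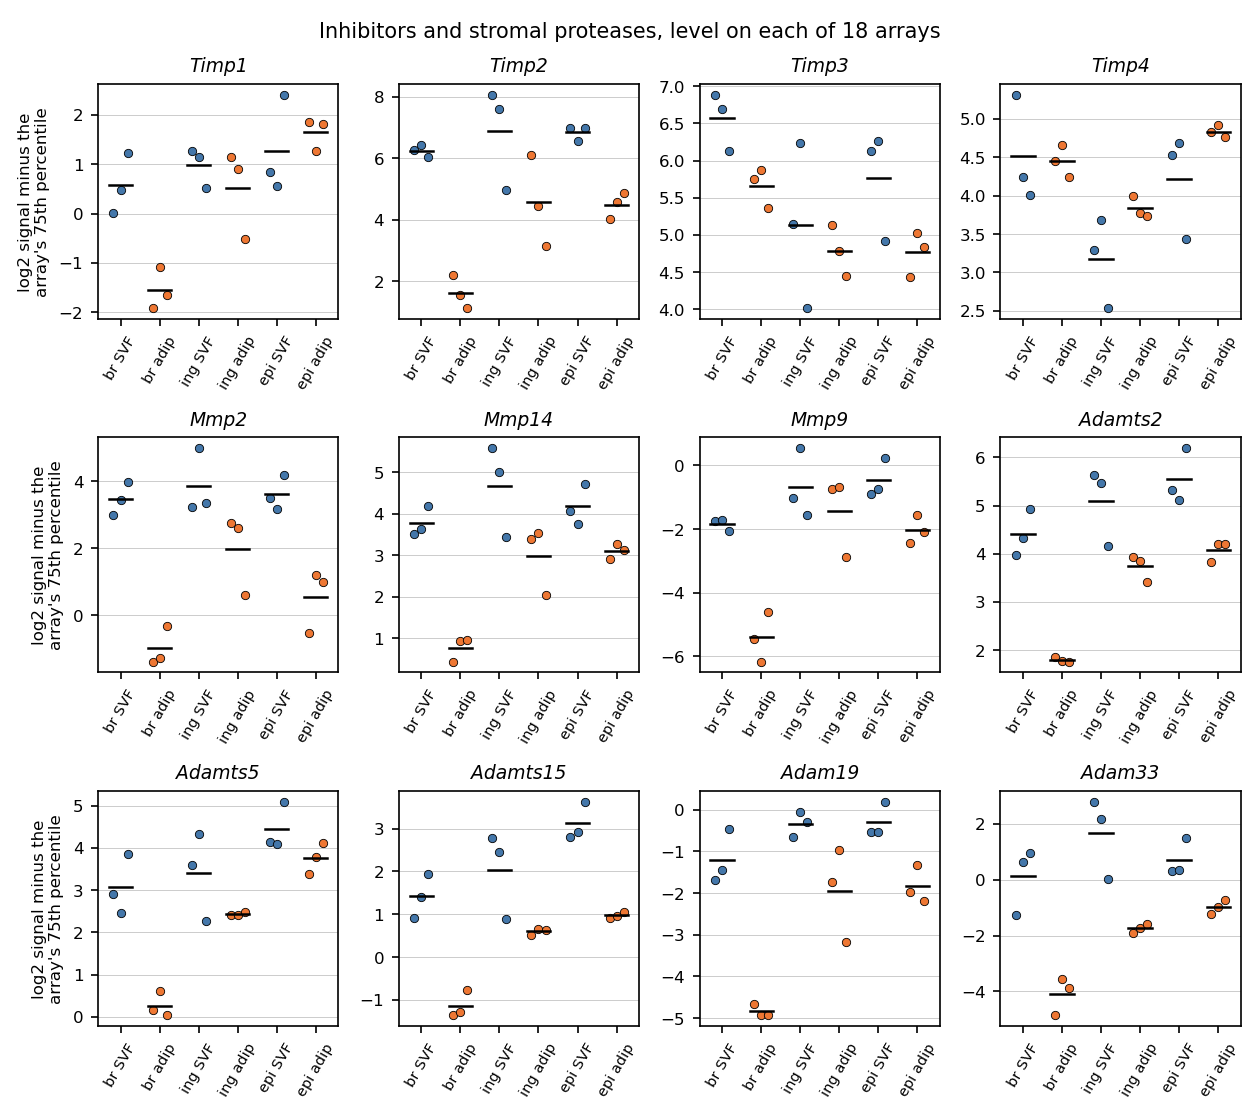
Level of 12 members (log2 signal minus the array's 75th percentile) on each of the 18 arrays, with SVF arrays in blue, adipocyte arrays in orange and the group mean as a bar; each panel has its own scale. The 3 brown adipocyte arrays lie lowest of all for Timp1, Timp2, Mmp14, Mmp9, Adamts2, Adamts5, Adamts15, Adam19 and Adam33, and 1 epididymal adipocyte array lies among them for Mmp2; no depot's fractions passed the test for Timp3 and Timp4, and for Mmp9 and Adam19 no brown adipocyte array was well above background, and for Adam33 only 2 were.

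Gelatinases cut denatured collagen and the type IV collagen of basement membranes. Mmp2, the gelatinase made mainly by fibroblast-like cells, read 2.98, 3.42 and 3.97 in brown SVF and -1.39, -1.27 and -0.31 in brown adipocytes. All brown adipocyte arrays lay far below the SVF arrays, a 21.8-fold difference (-4.45, SE 0.62, adjusted p = 0.000307). Epididymal Mmp2 stood at 3.50, 3.16 and 4.19 in SVF and -0.52, 1.19 and 0.98 in adipocytes, 8.38-fold lower without overlap (-3.07, SE 0.62, adjusted p = 0.0038). Inguinal Mmp2 read 3.24, 4.98 and 3.35 in SVF and 2.75, 2.59 and 0.62 in adipocytes. There the groups did not overlap either, but the difference of -1.87 missed the threshold (SE 0.62, adjusted p = 0.0586).

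Mmp9, the gelatinase known from leukocytes, was called in brown fat. Its levels were -1.75, -1.72 and -2.07 in brown SVF, and -5.46, -6.17 and -4.59 in brown adipocytes, where no array was well above background. It was at least 4.59-fold lower in brown adipocytes (adjusted p = 0.00106), although the call was lost with both versions of the normexp background correction. The levels were -1.02, 0.54 and -1.57 in inguinal SVF, -0.74, -0.66 and -2.89 in inguinal adipocytes, -0.90, -0.75 and 0.23 in epididymal SVF and -2.45, -1.57 and -2.09 in epididymal adipocytes. The inguinal fractions overlapped (-0.75, adjusted p = 0.443), and the epididymal ones did not but missed the threshold (-1.57, adjusted p = 0.0774). The second Mmp9 probe gave -3.05, -0.71 and -1.80.

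Among the membrane-type MMPs, Mmp14 is the collagenase of the cell surface that activates the Mmp2 proenzyme. It read 3.52, 3.64 and 4.19 in brown SVF against 0.43, 0.92 and 0.95 in brown adipocytes, an 8.09-fold lower level with no overlap (-3.02, SE 0.49, adjusted p = 0.000653). Inguinal levels were 5.58, 5.01 and 3.45 in SVF and 3.38, 3.55 and 2.03 in adipocytes. Inguinal SVF 3 lay below the highest adipocyte array, and the call (-1.69, SE 0.49, adjusted p = 0.033) was lost without inguinal SVF 1 (-1.24, adjusted p = 0.113), inguinal SVF 2 (-1.53, adjusted p = 0.0894) or inguinal adipocyte 3 (-1.22, adjusted p = 0.165). Epididymal Mmp14 read 4.06, 3.75 and 4.72 in SVF and 2.91, 3.26 and 3.13 in adipocytes, without overlap but past no threshold (-1.08, adjusted p = 0.119). Its second probe gave -2.79, -2.10 and -1.96 in the 3 depots.

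Mmp16, another transmembrane MMP, was dim throughout. Levels were -4.11, -4.16 and -2.91 in brown SVF and -5.71, -6.25 and -6.45 in brown adipocytes, and -1.82, -3.79 and -5.30 in inguinal SVF and -6.77, -7.43 and -7.66 in inguinal adipocytes. No adipocyte array of these depots was well above background, nor was 1 of the 3 inguinal SVF arrays. Mmp16 was at least 1.25-fold lower in brown adipocytes (adjusted p = 0.0203) and at least 3.60-fold lower in inguinal ones (adjusted p = 0.00371). The brown call was lost without brown SVF 3 (-2.00, adjusted p = 0.0999) and 2 of the brown adipocyte arrays. Epididymal levels were -3.70, -3.78 and -3.00 in SVF and -4.00, -5.19 and -5.88 in adipocytes, where 2 arrays were above background, and the difference of -1.53 missed the threshold. Mmp15, Mmp17 and Mmp25 passed in no depot, with differences of -0.81 to 0.31.

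Stromelysins and collagenases differed in how the depots behaved. Mmp3 (stromelysin 1) cuts many matrix proteins and activates other MMPs. It read 2.42, 2.92 and 3.09 in brown SVF and -1.77, -3.03 and -1.91 in brown adipocytes, all above background. The brown adipocyte level was 33.1-fold lower (-5.05, SE 0.76, adjusted p = 0.000421), and the call held under all alternatives run. In inguinal fat Mmp3 stood at 2.17, 4.60 and 3.05 in SVF and 3.09, 3.29 and 0.34 in adipocytes. Epididymal levels were -0.60, -0.89 and 0.92 in SVF and 0.19, 1.21 and 0.14 in adipocytes. The fractions overlapped in both white depots, with differences of -1.03 (adjusted p = 0.381) and 0.71 (adjusted p = 0.529).

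Mmp13, a collagenase of fibrillar collagen, read -2.51, -3.01 and -1.79 in brown SVF and -5.69, -6.52 and -6.49 in brown adipocytes, where no array was well above background. It was at least 3.05-fold lower in the brown adipocytes (adjusted p = 0.00098), a call lost with normexp (-0.89, adjusted p = 0.426). Inguinal levels were -6.36, -5.42 and -7.42 in SVF and -5.62, -4.78 and -7.50 in adipocytes, with 1 array of each above background. Epididymal levels were -4.92, -4.54 and -5.02 in SVF and -3.44, -4.69 and -2.84 in adipocytes, all above background. Neither white depot separated the fractions beyond the spread (0.43 and 1.17, adjusted p = 0.693 and 0.204).

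Mmp8, the neutrophil collagenase, stood at -2.24, -2.91 and -4.75 in brown SVF, at -5.58, -6.42 and -6.39 in brown adipocytes, at -6.10, -3.90 and -2.28 in inguinal SVF and at -6.15, -6.79 and -7.79 in inguinal adipocytes. No adipocyte array in either depot was well above background, nor was inguinal SVF 1. The level was at least 1.68-fold lower in brown adipocytes and at least 2.63-fold lower in inguinal ones (adjusted p = 0.0468 for the inguinal difference). Mmp8 passed the filter through brown SVF alone, so its brown call is conditioned on the filter and is given without its p. Leaving out single arrays ended the brown call in 5 of 18 fits and the inguinal one in 13 of 18. In epididymal fat it read -4.03, -6.24 and -4.65 in SVF and -5.57, -7.51 and -6.17 in adipocytes, a difference of -1.44 that missed the threshold. The 9 neutrophil markers summed to 21.2 to 43.5 in brown SVF and 0.402 to 2.24 in brown adipocytes, where Ngp, Camp, Ltf, Cxcr2 and Elane were above background on no array, and their part was not tested. Mmp11 (stromelysin 3) was 3.41-fold lower in brown adipocytes (-1.77, SE 0.57, adjusted p = 0.0383), and missed the threshold without any one of the 6 brown arrays (-1.92 to -1.60).

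Mmp12, the macrophage metalloelastase, varied too much within groups to be called. Its levels ran -3.16, -5.28 and -7.72 in brown SVF, -5.60, -2.63 and -6.42 in brown adipocytes, -6.41, -4.62 and -7.36 in inguinal SVF and -2.03, -1.44 and -7.76 in inguinal adipocytes. In epididymal fat it read -0.28, 0.81 and -2.23 in SVF and -3.50, -0.76 and -0.39 in adipocytes, the groups in which all arrays were above background. Brown adipocyte 2 and inguinal adipocytes 1 and 2, the arrays with the highest Mmp12 in their groups, also had the highest macrophage marker sums there (50.4, 286 and 200). Brown SVF 3 and epididymal SVF 3 had the highest sums of their groups (160 and 344) but the lowest Mmp12. Mmp19, a broadly expressed MMP, was at -1.94, -1.03 and -1.10 in brown SVF, -1.56, -2.76 and -1.91 in brown adipocytes, -0.54, -0.17 and -2.67 in inguinal SVF and -2.08, -2.66 and -0.16 in inguinal adipocytes. Epididymal Mmp19 read -0.67, -0.21 and 0.53 in SVF and -2.16, -1.66 and -0.73 in adipocytes, without overlap but past no threshold (-1.40, adjusted p = 0.151).

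Mmp23 is a short MMP without the usual domain that binds collagen. It read 0.10, 0.31 and 1.17 in brown SVF and -2.88, -2.84 and -1.73 in brown adipocytes, 2.40, 2.15 and 0.86 in inguinal SVF and -0.12, -0.31 and -1.99 in inguinal adipocytes, and 2.75, 2.55 and 3.69 in epididymal SVF and -0.35, 0.36 and 0.89 in epididymal adipocytes. Fractions did not overlap in any depot. The adipocyte level was 8.05-fold lower in brown fat (-3.01, SE 0.56, adjusted p = 0.0017), 6.11-fold lower in inguinal fat (-2.61, adjusted p = 0.00803) and 6.49-fold lower in the epididymal depot (-2.70, adjusted p = 0.00426). All 3 calls held with each array left out. With only the arrays of the groups compared, the inguinal call was lost. Mmp28 passed in no depot for the fractions (0.71, 0.18 and -0.92).

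Among the ADAMTS proteases that cut versican and aggrecan, Adamts15 was lower in adipocytes of all depots. It stood at 0.91, 1.41 and 1.93 in brown SVF and -1.36, -1.28 and -0.78 in brown adipocytes, 2.77, 2.46 and 0.89 in inguinal SVF and 0.52, 0.65 and 0.62 in inguinal adipocytes, and 2.81, 2.93 and 3.63 in epididymal SVF and 0.92, 0.95 and 1.05 in epididymal adipocytes. Each adipocyte array was below every SVF array of its depot. Differences were -2.56 (SE 0.41, adjusted p = 0.000602), -1.44 (adjusted p = 0.0305) and -2.15 (adjusted p = 0.00279). The inguinal one lost its call without any one of 5 inguinal arrays, and was -1.08 (adjusted p = 0.105) without inguinal SVF 1.

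Adamts5, the aggrecanase that also clears versican, was called in brown fat: it read 2.91, 2.47 and 3.86 in SVF and 0.15, 0.60 and 0.04 in adipocytes. The groups lay well apart, 7.04-fold (-2.82, SE 0.46, adjusted p = 0.000731). Its levels were 3.59, 4.33 and 2.28 in inguinal SVF, 2.40, 2.42 and 2.49 in inguinal adipocytes, 4.13, 4.09 and 5.10 in epididymal SVF and 3.38, 3.78 and 4.11 in epididymal adipocytes. White fractions overlapped, with differences of -0.96 (adjusted p = 0.18) and -0.68 (adjusted p = 0.301).

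Adamts8 read -3.11, -2.87 and -1.86 in brown SVF and -5.43, -6.20 and -4.75 in brown adipocytes, none of the latter above background. It was at least 2.70-fold lower in the brown adipocytes (adjusted p = 0.0014), a call lost with normexp (-0.56, adjusted p = 0.531) and its repaired version (-0.62, adjusted p = 0.193). Inguinal levels were -2.96, -3.90 and -3.91 in SVF and -2.50, -2.59 and -2.64 in adipocytes, and epididymal levels -3.88, -3.14 and -1.57 in SVF and -2.80, -2.51 and -2.36 in adipocytes. In inguinal fat every adipocyte array was the higher (1.02, adjusted p = 0.201). The second Adamts8 probe, dimmer, gave -1.54, 1.44 and 0.50.

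Adamts1 and Adamts4, inducible versican-cutting enzymes, were called in no depot. Adamts1 stood at 5.31, 4.47 and 4.63 in brown SVF and 3.18, 3.81 and 2.67 in brown adipocytes, a difference of -1.59 (SE 0.73, adjusted p = 0.146) without overlap. In the white depots it read 5.24, 4.04 and 1.29 in inguinal SVF, 4.81, 4.45 and 3.23 in inguinal adipocytes, 3.65, 4.01 and 3.14 in epididymal SVF and 3.59, 4.43 and 3.96 in epididymal adipocytes. Those fractions overlapped. Adamts4 was at -0.53, -0.83 and 0.17 in brown SVF, -1.53, -1.40 and -0.58 in brown adipocytes, 1.34, -2.03 and -2.22 in inguinal SVF and 0.99, 1.76 and -0.86 in inguinal adipocytes. Inguinal SVF 1 alone was high among the inguinal SVF arrays, and without it and epididymal adipocyte 3 the inguinal difference passed, at 2.75 (adjusted p = 0.0325) in place of 1.60 (adjusted p = 0.222). Epididymal Adamts4 read -1.17, -0.94 and -0.37 in SVF and 2.79, 0.57 and 1.29 in adipocytes, all of the latter higher, and missed the threshold (2.38, SE 0.85, adjusted p = 0.0526), which it passed without the same pair of libraries (2.51, adjusted p = 0.0325). Adamts9 differed by -0.23 to -0.02 in the 3 depots and was called in none, while another of its probes, above background on all 18 arrays, gave -0.41, 1.28 and 1.19.

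Adamts2, the main enzyme that removes the N-propeptide of fibrillar procollagens, was lower in adipocytes of every depot. It read 3.97, 4.32 and 4.94 in brown SVF and 1.86, 1.76 and 1.76 in brown adipocytes, 5.63, 5.46 and 4.17 in inguinal SVF and 3.94, 3.86 and 3.41 in inguinal adipocytes, and 5.33, 5.11 and 6.19 in epididymal SVF and 3.82, 4.20 and 4.21 in epididymal adipocytes. No depot showed overlap. The level was 6.13-fold lower in brown (-2.62, SE 0.38, adjusted p = 0.000352), 2.55-fold lower in inguinal (-1.35, adjusted p = 0.0299) and 2.77-fold lower in epididymal adipocytes (-1.47, adjusted p = 0.0124). The inguinal call was lost without inguinal SVF 1 (-1.08, adjusted p = 0.0975), inguinal SVF 2 (-1.16, adjusted p = 0.0907) or inguinal adipocyte 3 (-1.19, adjusted p = 0.124), and the epididymal one without epididymal SVF 3 (-1.14, adjusted p = 0.0603) or epididymal adipocyte 1 (-1.34, adjusted p = 0.0574). Of its 3 other probes, one gave -0.07, -0.64 and -0.67. Adamts14, a second procollagen N-proteinase, was 4.58-fold higher in epididymal adipocytes (2.19, SE 0.47, adjusted p = 0.00484) and Adamts3 was called nowhere.

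Adamts16, an ADAMTS of less settled substrates, stood at -2.91, -2.95 and -0.34 in brown SVF and -5.60, -6.38 and -5.15 in brown adipocytes, -0.45, -2.05 and -2.20 in inguinal SVF and -6.57, -5.59 and -6.25 in inguinal adipocytes, and -1.52, -1.40 and 1.92 in epididymal SVF and -3.76, -4.01 and -3.71 in epididymal adipocytes. The groups never overlapped; no brown and 1 inguinal adipocyte array was well above background. Brown adipocytes were at least 3.94-fold lower (adjusted p = 0.00628), with differences of -4.57 (SE 0.84, adjusted p = 0.00332) in inguinal and -3.50 (SE 0.84, adjusted p = 0.00863) in epididymal fat. Its other probe, above background on 4 arrays, gave 1.24, -1.15 and 2.85, and with the mean of both probes the brown and epididymal calls were lost. Adamts10, which acts on fibrillin microfibrils, read -1.61, -1.33 and -0.67 in brown SVF, -2.11, -2.02 and -1.97 in brown adipocytes, 0.18, -0.93 and 0.37 in inguinal SVF and -1.63, -1.86 and -1.55 in inguinal adipocytes. In epididymal fat it was at -0.42, -0.33 and 0.46 in SVF and -1.76, -0.95 and -1.14 in adipocytes. Fractions were apart in every depot, and the inguinal (-1.56, SE 0.36, adjusted p = 0.0119) and epididymal (-1.19, SE 0.36, adjusted p = 0.0264) differences passed, the latter not in 4 of the 18 fits with an array left out, such as without epididymal SVF 3 (-0.91, adjusted p = 0.116) or epididymal adipocyte 1 (-0.95, adjusted p = 0.126). Its 2 other probes gave -0.20 and -0.81 in inguinal and 0.07 and -0.56 in epididymal fat. Both calls were lost with the mean of its probes (-0.85, adjusted p = 0.0629, and -0.56, adjusted p = 0.174) and without the pair of libraries that stood apart (-1.40, adjusted p = 0.0529, and -1.26, adjusted p = 0.054). Adamts6 was called in brown fat (-1.24, adjusted p = 0.0485), but lay above background on no brown adipocyte array, had no usable bound and turned to 0.37 with the normexp background correction.

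Of the ADAMs with broad expression, Adam19 and Adam33 followed the SVF. Adam19, a sheddase of neuregulins, read -1.68, -1.44 and -0.47 in brown SVF and -4.65, -4.92 and -4.93 in brown adipocytes, none of these above background. Brown adipocytes were at least 7.20-fold lower (adjusted p = 0.000194). Inguinal Adam19 was at -0.66, -0.06 and -0.31 in SVF and -1.74, -0.96 and -3.16 in adipocytes, and epididymal Adam19 at -0.54, -0.54 and 0.19 in SVF and -1.98, -1.33 and -2.19 in adipocytes. Neither depot showed overlap (-1.61, SE 0.47, adjusted p = 0.0332, and -1.54, SE 0.47, adjusted p = 0.0261), and each call was lost in 4 of the 18 fits with an array left out, down to -1.01 without inguinal adipocyte 3 and -1.29 without epididymal SVF 3. Another Adam19 probe gave -2.90, -1.35 and -1.58, and one above background on 12 arrays gave -0.22, -0.18 and 0.98.

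Adam33, an ADAM known from mesenchymal cells, read -1.26, 0.65 and 0.96 in brown SVF and -4.86, -3.56 and -3.89 in brown adipocytes, 2 of the latter above background. Levels were 2.80, 2.18 and 0.03 in inguinal SVF, -1.90, -1.73 and -1.60 in inguinal adipocytes, 0.30, 0.35 and 1.49 in epididymal SVF and -1.22, -0.96 and -0.73 in epididymal adipocytes. The fractions lay apart in all depots; the brown (-4.22, SE 0.66, adjusted p = 0.000511) and inguinal (-3.41, SE 0.66, adjusted p = 0.00427) differences passed. Its 2 other probes gave -0.74 and -1.82 in brown fat and -1.98 and -1.92 in inguinal fat. Adam23, which lacks a catalytic site and is known from the nervous system, was 3.56-fold lower in brown adipocytes (-1.83, SE 0.40, adjusted p = 0.00414).

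Adam17 releases tumour necrosis factor and ligands of the epidermal growth factor receptor. Its levels were 1.84, 1.41 and 1.05 in brown SVF, 1.15, 1.58 and 0.36 in brown adipocytes, 1.64, 1.65 and 0.75 in inguinal SVF and 1.04, 0.16 and 0.31 in inguinal adipocytes, with overlap in both depots. Epididymal Adam17 read 1.47, 1.43 and 1.17 in SVF and -0.43, 0.30 and 0.10 in adipocytes. The epididymal fractions were apart, 2.58-fold (-1.37, SE 0.36, adjusted p = 0.0141), and the call was lost without epididymal SVF 2 (-1.33, adjusted p = 0.0512) or epididymal adipocyte 1 (-1.16, adjusted p = 0.0746). Adam10, the other main sheddase and a processor of Notch, was at -2.04, -3.00 and -2.81 in brown SVF, -3.56, -2.79 and -4.51 in brown adipocytes, -2.36, -2.75 and -4.13 in inguinal SVF and -2.54, -1.82 and -2.59 in inguinal adipocytes. In epididymal fat Adam10 read -2.32, -2.33 and -3.51 in SVF and -2.80, -2.25 and -2.91 in adipocytes. All fractions overlapped, and no difference (-1.003, 0.77 and 0.07) passed.

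Adam8, known from leukocytes, stood at 1.21, 1.43 and 1.49 in brown SVF, -0.99, 1.82 and -0.77 in brown adipocytes, 0.06, 1.30 and 3.34 in inguinal SVF and 2.46, 2.39 and -0.97 in inguinal adipocytes. Epididymal Adam8 read 2.71, 3.14 and 2.82 in SVF and 0.90, 1.91 and 2.46 in adipocytes. It passed in no depot, and brown adipocyte 2 and inguinal adipocytes 1 and 2, named above for their macrophage markers, were again the high arrays of their groups. Adam12, a sheddase known from adipogenic precursors and muscle, was dim. It read -5.16, -5.55 and -5.25 in brown SVF, -4.02, -4.28 and -4.55 in brown adipocytes (above background on no array), -5.77, -4.44 and -5.18 in inguinal SVF and -5.09, -5.47 and -4.91 in inguinal adipocytes. Epididymal Adam12 was at -3.91, -4.34 and -3.34 in SVF and -4.50, -5.45 and -6.08 in adipocytes, 1 of them above background, and the difference passed (-1.48, SE 0.40, adjusted p = 0.0157) except without epididymal SVF 3 (-1.22, adjusted p = 0.0707) or epididymal adipocyte 3 (-1.11, adjusted p = 0.0785). Adam9 and Adam15 passed in no depot, and Adam28 was 2.37-fold higher in epididymal adipocytes with overlap (1.24, adjusted p = 0.0424), a call lost in 8 of 18 fits (1.04, adjusted p = 0.158, without epididymal adipocyte 1).

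Some of the members higher in adipocytes were ADAMs known from testis and epididymis. Of 16 such members on the array 9 were tested; 5 were higher and 1 lower in epididymal adipocytes, 2 higher and 1 lower in inguinal adipocytes, and none was called in brown fat. Of all genes 18% were higher and 7.05% lower in epididymal adipocytes, and 9.07% and 4.87% in inguinal ones. Among the 5, Adam1b, Adam2 and Adam26a passed the filter through epididymal adipocytes alone, so nothing is read from this count. Adam30 read -5.13, -4.28 and -6.30 in brown SVF, -4.64, -4.75 and -5.31 in brown adipocytes, -4.83, -5.41 and -5.13 in inguinal SVF and -4.42, -3.48 and -4.88 in inguinal adipocytes. In epididymal fat it stood at -2.54, -5.47 and -4.97 in SVF and 0.74, -1.32 and -0.10 in adipocytes. The 3 epididymal adipocyte arrays were the highest of all 18, and the difference was 17.2-fold (4.10, SE 0.70, adjusted p = 0.00187). A second Adam30 probe, above background on 1 array, gave 1.41.

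Adam1b, a subunit of fertilin, was above background only on the epididymal adipocyte arrays, at -2.32, -5.10 and -3.23. On the other 15 arrays its spot read from -8.09 to -5.74, with -5.79, -8.00 and -7.71 in epididymal SVF, so that epididymal adipocytes exceeded their SVF at least 4.16-fold. It passed the filter through that group alone, so its call is conditioned on the filter and is given without its p. Its 2 other probes gave 1.30 and 1.16, and with no filter the first of them stood for the gene and the call was lost (adjusted p = 0.0678). Adam2, the other fertilin subunit, was at -6.31, -5.60 and -6.999 in brown SVF, -4.06, -5.18 and -5.30 in brown adipocytes, -6.48, -6.16 and -5.78 in inguinal SVF and -4.97, -4.82 and -3.11 in inguinal adipocytes. In epididymal fat Adam2 read -4.65, -5.59 and -5.78 in SVF and -2.23, -3.88 and -3.08 in adipocytes. Inguinal adipocytes, with 2 of 3 arrays above background, exceeded their SVF at least 1.65-fold (adjusted p = 0.0403). Epididymal ones exceeded theirs 4.85-fold (2.28, SE 0.56), with 2 of the 3 SVF arrays above background. Adam2 passed the filter through epididymal adipocytes alone, so its epididymal call is conditioned on the filter and is given without its p. The epididymal call was lost without epididymal adipocyte 1 (1.86, adjusted p = 0.0558), and the inguinal one in 6 of 18 fits, with 1.24 (adjusted p = 0.198) without inguinal adipocyte 3.

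Adam3, a sperm surface protein, stood at -5.51, -4.65 and -4.93 in brown SVF, -3.65, -4.50 and -3.23 in brown adipocytes, -6.32, -4.90 and -5.02 in inguinal SVF and -3.49, -3.47 and -2.66 in inguinal adipocytes. With 2 of the 3 inguinal SVF arrays above background, the inguinal adipocytes were 4.62-fold higher without overlap (2.21, SE 0.49, adjusted p = 0.00966). This call was lost without inguinal adipocyte 3 (1.93, adjusted p = 0.0552). Epididymal Adam3 read -3.17, -3.71 and -4.37 in SVF and -2.18, -3.64 and -2.41 in adipocytes, which overlapped. Adam26a was at -5.76, -4.70 and -7.62 in brown SVF, -5.75, -4.84 and -5.00 in brown adipocytes, -6.53, -6.18 and -7.44 in inguinal SVF, -5.54, -5.61 and -4.22 in inguinal adipocytes, -3.77, -6.24 and -6.74 in epididymal SVF and -2.43, -4.61 and -2.53 in epididymal adipocytes. The epididymal fractions overlapped, with 1 of the 3 SVF arrays above background. The call (2.39, SE 0.83) was lost in 12 of 18 fits with an array left out and with the replicate number as a block (adjusted p = 0.0563). Adam26a passed the filter through epididymal adipocytes alone, so its call is conditioned on the filter and is given without its p. Adam21 was higher in epididymal adipocytes by 2.25, also with overlap and with 1 of the 3 SVF arrays above background (adjusted p = 0.00865), but not without epididymal adipocyte 1 (1.86, adjusted p = 0.0521) or epididymal SVF 2 (1.71, adjusted p = 0.0502), nor with normexp (1.15, adjusted p = 0.229).

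Adam5, in contrast, was the lower of this set. It read -5.24, -5.22 and -3.60 in brown SVF, -5.31, -6.50 and -6.40 in brown adipocytes, -3.95, -3.18 and -4.64 in inguinal SVF and -5.47, -5.32 and -7.84 in inguinal adipocytes. Epididymal Adam5 stood at -3.21, -3.44 and -2.56 in SVF and -5.27, -6.82 and -5.79 in adipocytes. It passed in inguinal (-2.29, SE 0.66, adjusted p = 0.0341) and epididymal fat (-2.89, SE 0.66, adjusted p = 0.0068), with 1 adipocyte array above background in each. The inguinal call was lost in 3 of 18 fits, with -1.47 (adjusted p = 0.169) without inguinal adipocyte 3. A second Adam5 probe, above background on 3 arrays, gave 1.43, 0.60 and 1.29.

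Outside the ADAMs, Mmp1a and Mmp24 were also higher in epididymal adipocytes. Mmp1a, a collagenase gene near Mmp3, was above background only there, at -2.11, -5.16 and -3.03, and read from -7.95 to -5.74 on the other 15 arrays, with -6.89, -6.98 and -7.69 in epididymal SVF. Epididymal adipocytes exceeded their SVF at least 4.52-fold, again in a gene that passed the filter through that group alone. Mmp24, a transmembrane MMP known from neurons, was at -6.02, -5.38 and -5.45 in brown SVF, -4.37, -5.45 and -4.00 in brown adipocytes, -5.46, -5.34 and -4.58 in inguinal SVF and -6.44, -6.12 and -4.28 in inguinal adipocytes. Epididymal Mmp24 read -5.01, -6.11 and -5.47 in SVF, with 1 array above background, and -3.01, -2.44 and -2.64 in adipocytes. The epididymal adipocyte arrays were the highest of all 18 (2.83, SE 0.51). Mmp24 also passed the filter through that group alone, so its call is conditioned on the filter and is given without its p. A second Mmp24 probe gave 0.74.

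**Figure D3:**
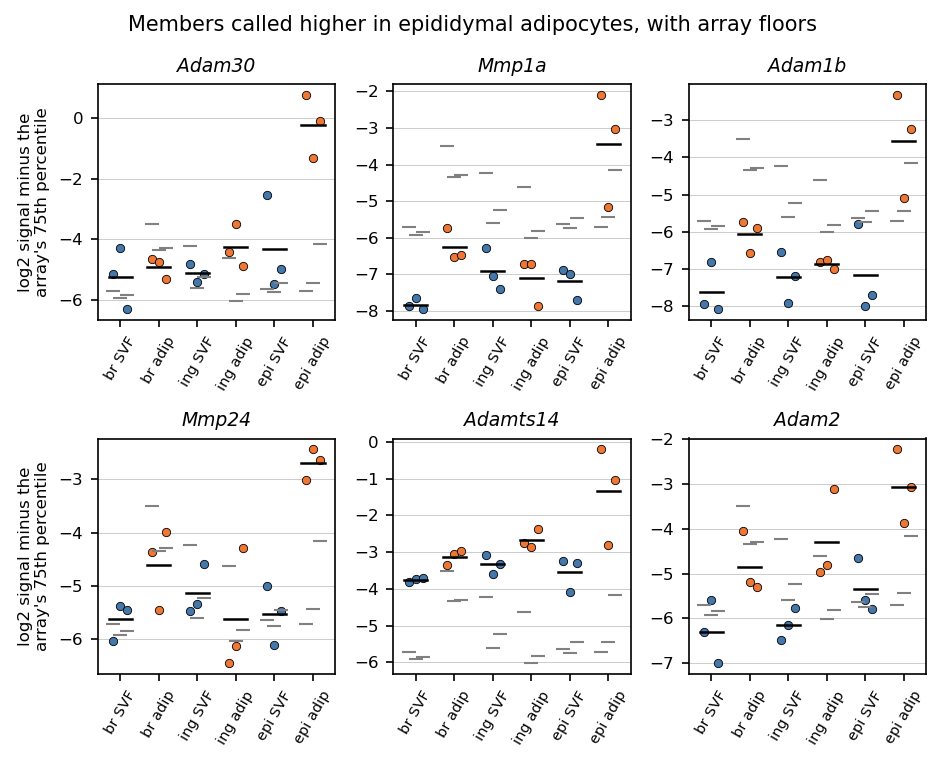
Level (log2 signal minus the array's 75th percentile) of 6 members called higher in epididymal adipocytes on each of the 18 arrays; SVF arrays are blue, adipocyte arrays orange, black bars group means, and grey ticks the weakest signal well above background on each array. For Mmp1a and Adam1b only the epididymal adipocyte points lie above their ticks, and epididymal adipocyte 1 is the highest point for 5 of the 6 members.

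Of these 9 higher members, 5 (Adam1b, Adam2, Adam26a, Mmp1a and Mmp24) passed the filter through epididymal adipocytes alone, the group in which they are high, so nothing is read from their count. As background for Mmp1a and Adam1b, 410 tested genes had no epididymal SVF array above background, and 298 of them (72.7%) were called higher in epididymal adipocytes. Epididymal adipocyte 1, the array with 87.9% of spots above background, gave the highest value in the group for all of the 9 except Mmp24 and Adam28. Without it, 5 members were higher and 7 lower in epididymal fat, and the calls of Adam1b, Adam30, Adamts14, Mmp1a and Mmp24 held. Those of Adam1b, Mmp1a and Mmp24 are conditioned on the filter, so nothing is read from their holding. Of the 11 listed markers of epididymal epithelium and sperm, Lcn5 and Lcn8 were above background on no array and Crisp1 on no adipocyte array, and the 10 on the array summed to 0.758 to 2.52 in epididymal adipocytes and 2.79 to 3.99 in epididymal SVF. Of the 6 that were tested, 2 were higher and 2 lower in epididymal adipocytes (of all genes 18% were higher and 7.05% lower). The weight of each of these in the results was not tested.

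The next question is how the SVF differed between depots. Few members did, as few genes did: 2 were higher in brown than inguinal SVF and none lower (background 2.27%, with 1.8% higher and 0.474% lower), 2 were lower in brown than epididymal SVF and none higher (1.78%, with 1.06% higher and 0.723% lower), and none differed between inguinal and epididymal SVF (0.297%, with 0.0572% higher and 0.239% lower), where 12 members had an unadjusted p under 0.05. Mmp13 differed by 3.96 between brown and inguinal SVF (SE 0.65, adjusted p = 0.0051), with 1 of the 3 inguinal arrays above background, and held with each array left out. On slide 8, which held 1 array of each SVF group, Mmp13 in brown SVF 3 stood 5.63 above inguinal SVF 3. The latter array was not well above background for Mmp13. The call was lost with only the groups compared (adjusted p = 0.0747), on scan day 6 alone (3.13, adjusted p = 0.0592) and with normexp, where the difference was -0.077. Mmp17, a membrane-type MMP on a lipid anchor, was 2.80-fold higher in brown than inguinal SVF (1.48, SE 0.35, adjusted p = 0.0379), at 0.88, -0.14 and 0.49 against -0.41, -1.37 and -1.44. That call was lost in 9 of 18 fits with an array left out, most of all without brown SVF 1 (1.25, adjusted p = 0.172).

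Mmp23 was 5.55-fold lower in brown than epididymal SVF (-2.47, SE 0.56, adjusted p = 0.0345) and Adamts15 3.26-fold lower (-1.70, SE 0.41, adjusted p = 0.0476). Between the single brown and single epididymal SVF array of slide 8 the differences were -2.52 and -1.70. The first was lost in 5 and the second in 15 of the 18 fits with an array left out, most of all without epididymal SVF 3 (-2.13, adjusted p = 0.192, and -1.45, adjusted p = 0.25), and both with the slide as a fixed block. Without inguinal SVF 1 and epididymal adipocyte 3, 6 members were lower in brown than epididymal SVF, and 3 separated inguinal from epididymal SVF: Adamts3 (-2.63) and Adamts19 (-4.40) lower and Mmp3 (4.02) higher in inguinal SVF. Adamts3 and Adamts19, which are in both of these counts, passed the filter through epididymal SVF alone, so their calls are conditioned on the filter. Adamts19 read -0.97 in inguinal SVF 1 and -7.07 and -7.33 in the others, and Adamts3 -1.06, -5.21 and -5.18.

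Adipocytes differed between depots in many more members, mostly in one direction. Brown adipocytes were lower than epididymal ones in 27 members and higher in 2 (background 28.8%, with 12.3% higher and 16.4% lower), and lower than inguinal ones in 15 and higher in 1 (12.2%, with 6.37% higher and 5.83% lower). Inguinal adipocytes were lower than epididymal ones in 5 and higher in none (7.64%, with 0.885% higher and 6.76% lower). Adam1b, Mmp1a and Mmp24, called in both comparisons with epididymal adipocytes, passed the filter through that group alone. So did Adam2, called in the comparison with brown adipocytes. Nothing is read from the part of such members in these counts and medians. The median difference of members was -1.64 for brown minus epididymal, -0.45 for brown minus inguinal and -0.43 for inguinal minus epididymal adipocytes, against -0.01, 0.15 and -0.08 for all genes. Of the progenitor and fibroblast markers 7 of 10 were lower in brown than in either kind of white adipocytes, as were 8 of 10 macrophage markers against inguinal and 10 of 10 against epididymal adipocytes. Of 8 mesothelial markers 7 were lower in brown than epididymal adipocytes, with sums of 0.291 to 0.713 against 14.1 to 26.2, and none was called against inguinal ones. Of 8 mural cell markers 4 were lower in brown than inguinal adipocytes, and 5 lower and 1 higher than in epididymal ones. The part of these markers was not tested, and scan and software cannot be told apart from the depot here. Without inguinal adipocyte 1 the count of brown against inguinal calls was 9 in place of 16. With quantile normalization the share of higher genes among all calls moved from 52.2% to 41.7% for brown minus inguinal and from 11.6% to 37.0% for inguinal minus epididymal adipocytes.

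**Figure D4:**
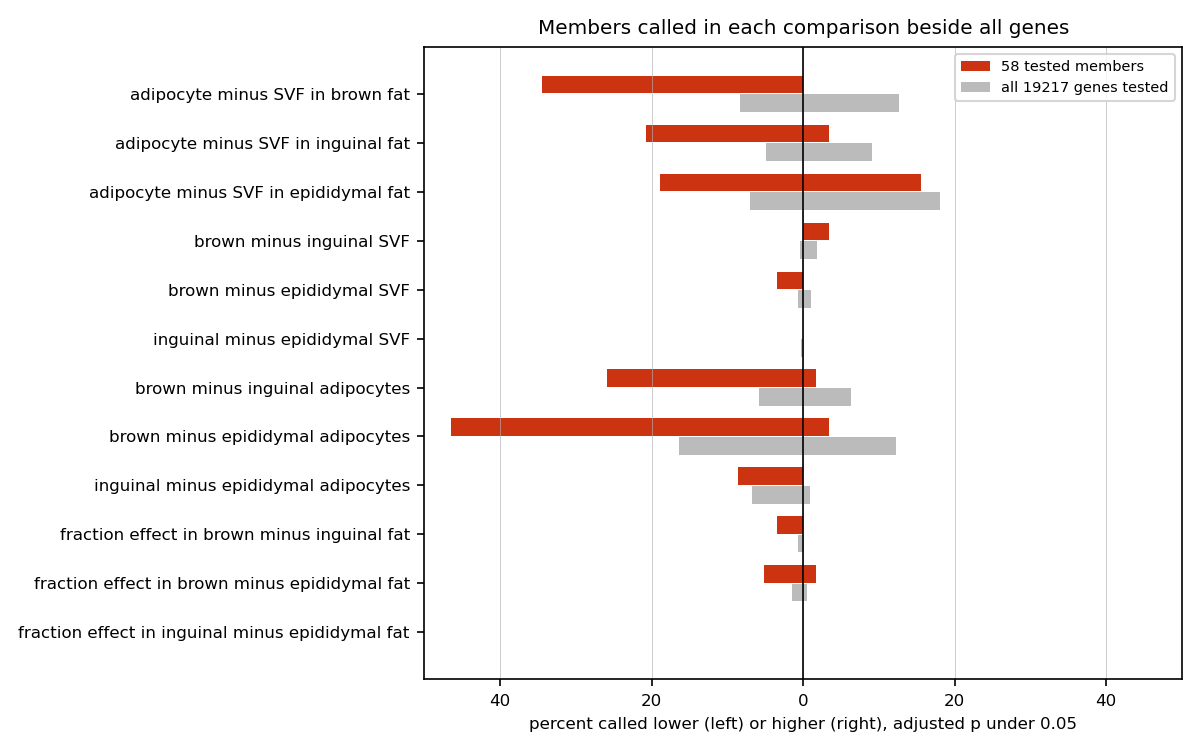
Percent of the 58 tested members (red) and of all 19217 genes tested (grey) called lower (left of 0) or higher (right of 0) in each of the 12 comparisons, at an adjusted p under 0.05. The red bars run furthest left for brown minus epididymal adipocytes (27 members) and for adipocytes minus SVF in brown fat (20 members), and no red bar is drawn where no member was called. Adam1b, Adam2, Mmp1a and Mmp24, among the 27, passed the filter through epididymal adipocytes alone.

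Members lower in brown than in both kinds of white adipocytes included both secreted and membrane proteases and both called inhibitors. Mmp3 was 22.3-fold lower than in inguinal adipocytes (-4.48, SE 0.76, adjusted p = 0.00244) and 6.73-fold lower than in epididymal ones (-2.75, SE 0.76, adjusted p = 0.0153). Mmp9 was at least 6.13-fold and at least 4.02-fold lower (adjusted p = 0.00164 and 0.00176), calls lost with normexp (-1.69, adjusted p = 0.0695, and -0.88, adjusted p = 0.345) and its repaired version (-1.55, adjusted p = 0.176, and -0.96, adjusted p = 0.345). Timp2 was 7.72-fold and 7.32-fold lower (-2.95, adjusted p = 0.0172, and -2.87, adjusted p = 0.00981), and Timp1 4.18-fold and 9.18-fold lower (-2.06, adjusted p = 0.0176, and -3.20, adjusted p = 0.000699). Adamts5 differed by -2.17 (adjusted p = 0.00875) and -3.49 (adjusted p = 0.000228), Adamts2 by -1.94 and -2.28, Mmp14 by -2.22 and -2.33, and Adam23 by -2.27 and -2.43. Mmp2 passed against inguinal adipocytes (-2.98, adjusted p = 0.00813) but not against epididymal ones (-1.54, adjusted p = 0.0757), whose arrays overlapped with it. Without inguinal adipocyte 1 the brown against inguinal calls of Timp2 (-2.18, adjusted p = 0.0957), Timp1 (-1.74, adjusted p = 0.0946), Mmp14 (-2.02, adjusted p = 0.0569) and Mmp2 (-2.60, adjusted p = 0.051) were lost, and without brown adipocyte 2 that of Mmp3 against epididymal adipocytes (-2.35, adjusted p = 0.0587).

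Mmp28, epilysin, was the member higher in brown than in both kinds of white adipocytes. It read -0.95, -1.22 and -1.51 in brown, -3.25, -3.53 and -1.64 in inguinal and -2.36, -3.08 and -3.23 in epididymal adipocytes. All brown arrays lay above all white ones, 2.99-fold over inguinal (1.58, SE 0.45, adjusted p = 0.0352) and 3.16-fold over epididymal adipocytes (1.66, SE 0.45, adjusted p = 0.015). Single arrays ended the first call in 5 of 18 fits (1.36 without inguinal adipocyte 1) and the second in 2 (1.49 without epididymal adipocyte 3), and the mean of both its probes ended both. Adam17 was 2.06-fold higher in brown than epididymal adipocytes (1.04, adjusted p = 0.0436), lost in 8 of 18 fits.

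Between the white depots, Adam1b, Adam30, Mmp1a, Mmp13 and Mmp24 were lower in inguinal than epididymal adipocytes. Adam30 was 16.4-fold lower (-4.04, SE 0.70, adjusted p = 0.00803), with 2 of 3 inguinal arrays above background. Mmp1a was at least 4.15-fold lower and Adam1b at least 3.82-fold, again with the filter passed through epididymal adipocytes alone. Mmp24, which passed in the same way, differed by -2.92 and is given without its p. Mmp13 differed by -2.31 (adjusted p = 0.0447). For Mmp24 and Mmp13, 1 of 3 inguinal arrays was above background. The calls of Mmp1a and Mmp24 held with each array left out, but they are conditioned on the filter and nothing is read from this. Without epididymal adipocyte 1 Adam30 missed the threshold (-3.56, adjusted p = 0.052), as did Adam1b (-2.69, adjusted p = 0.0821) and Mmp13 (-2.20, adjusted p = 0.178). With the normexp background correction the signs of Adam1b, Mmp1a, Mmp13 and Mmp24 were reversed, but not with its repaired version.

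The last question is for which members the difference between adipocytes and SVF itself differed between depots, tested as an interaction. Against inguinal fat 2 members were more strongly lower in brown fat (background 0.864%, with 0.135% higher and 0.729% lower), and against epididymal fat 3 were more strongly lower and 1 higher (2.02%, with 0.536% higher and 1.48% lower), whereas none separated inguinal from epididymal fat (0.0781%, with 0.0156% higher and 0.0624% lower), where 8 members had an unadjusted p under 0.05. Mmp3 was 5.05 lower in brown adipocytes than SVF and 0.71 higher in epididymal adipocytes than SVF, an interaction of -5.75 (SE 1.07, adjusted p = 0.0123). It held with each array left out and under all 12 alternatives that could be run. Against inguinal fat the Mmp3 interaction was -4.02 (adjusted p = 0.103). Mmp13 gave -4.97 (SE 0.92, adjusted p = 0.0123) against epididymal and -4.23 (SE 0.92, adjusted p = 0.0459) against inguinal fat. The first held with each array left out, while the second was lost in 15 of 18 fits, most of all without brown SVF 3 (-3.90, adjusted p = 0.131). With normexp both were lost (-1.64, adjusted p = 0.725, and -1.09, adjusted p = 0.902), as with its repaired version (-1.74, adjusted p = 0.0749, and -1.47, adjusted p = 0.189).

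Adamts8 gave -3.86 (SE 0.73, adjusted p = 0.0195) against inguinal and -3.15 (SE 0.73, adjusted p = 0.039) against epididymal fat, and these calls were lost in 4 and 11 of the 18 fits (-3.48, adjusted p = 0.0627, without brown SVF 3; -3.01, adjusted p = 0.108, without epididymal SVF 2). Both were also lost with normexp (-0.81, adjusted p = 0.902, and -0.72, adjusted p = 0.948), its repaired version (-1.19, adjusted p = 0.355, and -0.79, adjusted p = 0.493) and the deposited table (-1.96, adjusted p = 0.0563, and -1.18, adjusted p = 0.156). Adam12 gave 2.51 (SE 0.57, adjusted p = 0.0355) against epididymal fat, lost in 9 of 18 fits (2.38, adjusted p = 0.0921, without brown adipocyte 1) and with both versions of normexp (1.13, adjusted p = 0.86, and 1.20, adjusted p = 0.181). Its brown adipocyte signal was above background on no array, so this interaction rests on a level that was not measured there. For Mmp13 and Adamts8 the brown adipocyte level is likewise below background, which leaves only a bound for the brown difference. For Mmp13, only 1 array each of inguinal SVF and inguinal adipocytes was above background, so the inguinal difference also includes spots that were not. Scan and software cannot be told apart from the depot in these interactions. Of 8 mural cell markers, 5 had a lower fraction difference in brown than inguinal fat and 4 in brown than epididymal fat. None was higher. Of 10 macrophage markers 1 and 0 were lower, and of 10 progenitor and fibroblast markers none was called. The part of these markers was not tested.

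**Figure D5:**
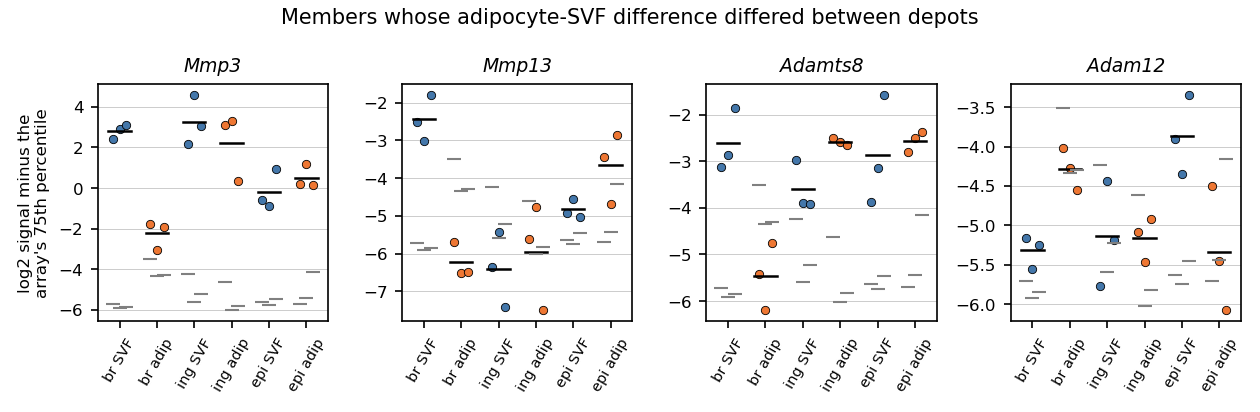
Level (log2 signal minus the array's 75th percentile) of the 4 members whose difference between adipocytes and SVF differed between depots, on each of the 18 arrays; SVF arrays are blue, adipocyte arrays orange, black bars group means, and grey ticks the weakest signal well above background on each array. The brown adipocyte points of Mmp3 lie above their ticks at -3.03 to -1.77, while those of Mmp13 and Adamts8 lie below them.

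A list of 42 other genes of matrix proteolysis (cathepsins, serpins, procollagen processing and ADAMTS-like proteins) was set beside the members; 37 were tested. In brown fat 17 were lower and 2 higher in adipocytes, in inguinal fat 7 and 3, and in epididymal fat 10 and 2, with medians of -1.61, -0.73 and -0.59. Of all genes 8.35% were lower and 12.7% higher in brown, 4.87% and 9.07% in inguinal and 7.05% and 18% in epididymal adipocytes. The lowest in brown fat were Adamtsl1, an ADAMTS-like protein without protease domain (at least 14.8-fold, adjusted p = 5.98e-05), the procollagen C-proteinase enhancer Pcolce2 (-5.08), the collagenolytic cathepsin Ctsk (-4.25) and Serpinf1 (-4.11), and the higher ones were the lysosomal cathepsins Ctsd (1.59, adjusted p = 0.00467) and Ctsb (1.38, adjusted p = 0.00319). In inguinal fat Spock2 (-3.46), Pcolce2 (-2.64), the membrane MMP inhibitor Reck (-2.24) and the procollagen C-proteinase Bmp1 (-1.87) were the lowest, and Ctsd (1.68, adjusted p = 0.00672) and Ctsb (1.20, adjusted p = 0.0134) were among the higher ones. In epididymal fat Adamtsl1 (-2.77), Pcolce2 (-2.56), Ctsk (-2.29) and Bmp1 (-2.17) were the lowest, and Ctsd (1.31, adjusted p = 0.0146) was among the higher ones. Of 9 cofactors of Adam10 and Adam17 (tetraspanins and iRhoms), 2 were lower in brown adipocytes, 2 higher and 1 lower in inguinal and 2 higher in epididymal ones (of all genes 21.1%, 13.9% and 25% were called), among them Tspan15, a partner of Adam10, in inguinal fat (2.13, adjusted p = 0.00405) and Tspan10 in epididymal fat (at least 4.85-fold, adjusted p = 0.0111).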

How the data were processed

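RNA of 18 samples in 6 groups of 3 was measured on one-colour arrays of the Agilent 44K mouse format. The deposited intensity values are the background-corrected, processed green signals of each spot, made by the authors with Feature Extraction 10.5.1.1 on 12 arrays and 9.5.3.1 on 6, per the file headers. The authors' deposited series table holds normalized log2 values for 31201 probes, with array medians of 8.12 to 8.13. Its scale follows log2, how it was centred is not given in the sources used here, and it was used as an alternative only. The genome build is not given in the sources used here.

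Control spots and outlier flags were left out, spots of one probe averaged, and log2 signals set relative to each array's 75th percentile. Probes were kept if some group had each of its 3 arrays well above background, and the brightest kept probe stood for its gene. The 6 groups were fitted together with limma 3.58.1 in R 4.3.3 (lmFit and eBayes), and tables were made with Python 3.11.15 and pandas 2.3.3. The 12 contrasts were 3 between fractions, 6 between depots and 3 interactions, each adjusted over 19217 genes, with 696 tests of members. The fit was tested on simulated data. Alternatives were quantile normalization, 2 versions of normexp, other filters and probe rules, the deposited table, blocks for replicate number, slide and scan day, and leaving out arrays. The repaired normexp fits each array's parameters without its lowest 0.5% of spots. It and the subset of scan day 6 were chosen after seeing the data. With plain normexp, levels had a standard deviation of 0.97 to 1.56 on inguinal SVF 1 and 2 and inguinal adipocytes 1 and 2. It was 1.98 to 2.53 on the other arrays. With the repaired version the same inguinal arrays had 2.09 to 2.55.

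Genes with values on every array were 19 chosen by name and up to 6 further called members per direction in each fraction comparison; interaction and depot calls were named at an adjusted p under 0.05, and other matrix genes up to 4 per direction. The members and lists were chosen with earlier results of these data known. Same-numbered arrays correlated over 0.1 in 17 of 45 cases (-0.263 to 0.514). Among the comparisons made, only for the epididymal fractions were all 3 over 0.1 (0.138 to 0.482), so the numbers were taken to pair samples there, by the data and not the labels; the block is an alternative. All 18 columns of the deposited table matched their own group best, but 14 matched an array of another replicate number in it, so the numbers of the table and the scanner files differ. Comparisons use groups only. One gene of the list of other matrix proteolysis genes is not reported here by name.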

Additional observations from a re-analysis of the deposited data

Results flagged for a closer look

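In 6 cases the difference between adipocytes and SVF differed between depots by a test of the difference itself (limma interaction, Benjamini-Hochberg adjusted over all genes). For Adamts8 it was lower in brown than inguinal fat by an interaction of -3.86 (adjusted p = 0.0195), and for Mmp13 by -4.23 (adjusted p = 0.0459). Against epididymal fat the interaction was -5.75 for Mmp3 (adjusted p = 0.0123), -4.97 for Mmp13 (adjusted p = 0.0123), -3.15 for Adamts8 (adjusted p = 0.039) and 2.51 for Adam12 (adjusted p = 0.0355). Mmp3 was above background on all arrays, while no brown adipocyte array was for the other 3 genes.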

How the results depend on the processing

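Of 114 calls of members, 61 were kept with each of the 18 arrays left out and 30 under everything run; 8 values turned sign under an alternative. These were Adamts6 in brown fat (0.37 with normexp, 0.36 with repaired normexp), Mmp13 in brown minus inguinal SVF (-0.077 with normexp) and Adam1b in brown minus epididymal adipocytes (0.0040 with no filter). For inguinal minus epididymal adipocytes with normexp they were Adam1b (0.63), Mmp13 (0.99), Mmp1a (0.64) and Mmp24 (0.46). Of these, only Adamts6 also turned sign with the repaired version. The cause was not tested, nor was the part of the narrow normexp spread on the inguinal arrays named above. Counts of called members are given in the order of brown, inguinal and epididymal fractions, then brown minus inguinal, brown minus epididymal and inguinal minus epididymal for SVF, adipocytes and interactions, where 20, 14, 20, 2, 2, 0, 16, 29, 5, 2, 4 and 0 were found. Leaving out 1 array gave 16 to 22, 5 to 15, 12 to 24, 1 to 5, 0 to 6, 0 to 3, 9 to 20, 20 to 33, 2 to 8, 0 to 5, 2 to 8 and 0 to 4. The lowest inguinal count, 5, came without inguinal adipocyte 3 (9 without inguinal SVF 1 and 8 without inguinal SVF 2), and the lowest epididymal one, 12, without epididymal adipocyte 1 (13 without epididymal SVF 2 or 3). With normexp the fractions gave 13, 3 and 9, SVF 7 in brown minus inguinal and 15 in inguinal minus epididymal, adipocytes 8, 12 and 0 and the first 2 interactions 0 and 1; the repaired version gave 9 for inguinal fractions, 6 for brown minus epididymal SVF, 9, 15 and 1 for adipocytes and 0 and 1 for interactions. With probes above background on all arrays, which tests fewer genes, the fractions gave 11, 7 and 8, SVF 1 and 1, adipocytes 15 and 0 in the comparisons with epididymal fat, and interactions 0 and 1. No filter gave 6 for inguinal fractions, 1 and 0 for SVF and 1 and 2 for interactions. With only the groups compared, inguinal fractions gave 1, SVF 0 and 5, inguinal minus epididymal adipocytes 3 and interactions 1 and 10. The deposited table gave 5 for brown minus epididymal SVF and 1 for the first interaction. For brown minus epididymal SVF the slide gave 0 as a fixed or random block and the scan day 4 as either; inguinal minus epididymal SVF gave 1 with the scan day fixed or the slide random; inguinal fractions gave 7 with either as a random block, and brown minus inguinal SVF 4 with the scan day random and 1 on scan day 6 alone. Without the pair of libraries that stood apart the counts were 7 for inguinal fractions, 6 and 3 for SVF against epididymal fat and 1 and 2 for interactions. The replicate block gave 21, 13 and 19 for the fractions (in the epididymal one, the only comparison whose numbers paired, it changed no call but that of Adam26a), 0 for brown minus epididymal SVF and 1 for the first interaction; 9 of 18 arrays correlated best with their own number. Precision is limited by 3 arrays a group, and for dim members by signal over background.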
